A study of Arabidopsis thaliana with 4 samples.

Results

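The calcineurin B-like proteins (CBL1 to CBL10) and the CBL-interacting protein kinases (CIPK1 to CIPK25) are a calcium-decoding gene network of Arabidopsis thaliana. The 35 genes were taken by their listed locus identifiers, 10 CBL genes and 25 CIPK genes, out of 32833 genes in the count table. All 35 had a row there. Messenger RNA was sequenced from whole seedlings of ecotype Col-0 at 7 days of age, grown in long days at constant temperature. The control group, wt, was labelled WT. The other carried the genotype label cml39 -/-, for the calmodulin-like protein CML39. Each group had 2 libraries, called here wt 1, wt 2, cml39 1 and cml39 2. Neither group carried another allele or treatment in its labels, and neither the mutant allele nor the number of seedlings per library is given in the sources used here. Nothing in the labels says that the 2 libraries of a group were grown apart, so each p-value measures only the spread between these libraries.

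The libraries held between 19331639 and 24101882 counted reads. At these depths a gene with 0 reads could have been present at up to 0.113 to 0.164 CPM, the level of 3 reads, where CPM is the normalised read count of a gene relative to its library total after scaling for composition. CML39 (AT1G76640), the gene named by the mutant label, had 0 reads in wt 1 and in wt 2, 45 in cml39 1 and 21 in cml39 2. Its counts were thus not lower under the cml39 label. Whether these reads come from a whole transcript, a partial one or exchanged labels was not tested. A rise or a fall below therefore always means the libraries labelled cml39 relative to wt. Sums of organ markers also differed between libraries. Root, leaf and flower sums went with the labels, the flower sum through the gene PI, while the seed sum was high in cml39 2 alone. Of 17 root markers 13 fell and 0 rose, while 21.6% of all tested genes fell and 19.3% rose. The summed level of the root markers was 4810 CPM in wt 1 and 4270 CPM in wt 2. It was 1100 CPM in cml39 1 and 1370 CPM in cml39 2. The marker PYK10 made up most of each sum. Without PYK10 the sum was 521 and 525 CPM in wt and 130 and 159 CPM in the libraries labelled cml39. WOX5, a gene of the root quiescent centre, had 15 and 11 reads in wt and 0 in both libraries labelled cml39. PLT2, a root stem cell gene, had 30 and 19 reads in wt, 0 in cml39 1 and 21 in cml39 2. SCR, MYB36, PLT1 and PLT2 were the 4 root markers that did not pass. PLT1 had 58 and 45 reads in wt, 6 in cml39 1 and 55 in cml39 2. SCR had 42.45 and 41.75 CPM in wt and 43.21 and 54.17 CPM in the libraries labelled cml39. The sum of 6 leaf markers was 35000 and 35300 CPM in wt against 44100 and 43400 CPM in the libraries labelled cml39, with 2 genes that rose. The sum of 5 flower markers was 11.7 and 12.7 CPM against 181 and 165 CPM. PI, a petal and stamen identity gene, made up 5.74 and 8.42 CPM of it in wt and 175 and 159.6 CPM in the libraries labelled cml39. SEP3 overlapped between the groups, at 5.7 and 4.16 CPM in wt against 5.685 and 5.53 CPM. AP3 and AG had at most 4 reads in a library, and AP1, a floral meristem gene, had 0 reads in every library. The sum of 12 seed markers was 2.18, 2.53 and 3.37 CPM in wt 1, wt 2 and cml39 1, and 201 CPM in cml39 2. In such bulk samples fewer cells of a type and less RNA per cell cannot be told apart. The part of these marker shifts in the values below was not tested.

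CBL proteins carry EF-hand domains that bind calcium. A CBL protein loaded with calcium binds a short motif in the regulatory domain of a CIPK, which releases the kinase from autoinhibition and brings it to the membrane on which the CBL resides. CBL1 and CBL9 act at the plasma membrane and CBL2 and CBL3 at the vacuolar membrane. The best known outputs are ion transporters: potassium uptake through AKT1, sodium export through SOS1, nitrate uptake through NPF6.3 and magnesium storage in the vacuole. Several CIPK genes are also known from responses to abscisic acid, the stress and seed dormancy hormone.

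The DNA in front of the genes is shown for 3 members on which the results turn, CIPK16, which had the highest log2 change, and CBL9 and CIPK6, a CBL and a CIPK of high abundance that fell. Each sequence is the 250 bases before the annotated start of the gene in the RefSeq annotation of TAIR10.1, read 5′ to 3′ on the strand of the gene. Capitals mark the matches, on either strand, to 5 short motifs of known transcription factors, which are spelled out with the gene structures. No other annotated gene lay in these windows, which span chr2:10672893-10673142 on the minus strand for CIPK16, chr5:19132305-19132554 on the minus strand for CBL9 and chr4:15066778-15067027 on the plus strand for CIPK6.
CIPK16: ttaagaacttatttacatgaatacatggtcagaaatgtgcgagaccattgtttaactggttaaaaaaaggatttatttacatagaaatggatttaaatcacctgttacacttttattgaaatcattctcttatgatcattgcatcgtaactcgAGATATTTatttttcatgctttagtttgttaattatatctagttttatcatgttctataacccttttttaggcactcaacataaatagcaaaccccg
CBL9: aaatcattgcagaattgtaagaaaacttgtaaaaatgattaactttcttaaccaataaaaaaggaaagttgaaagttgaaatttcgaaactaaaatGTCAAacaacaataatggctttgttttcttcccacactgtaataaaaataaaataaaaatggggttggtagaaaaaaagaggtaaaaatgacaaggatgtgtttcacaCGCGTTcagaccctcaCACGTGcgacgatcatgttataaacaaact
CIPK6: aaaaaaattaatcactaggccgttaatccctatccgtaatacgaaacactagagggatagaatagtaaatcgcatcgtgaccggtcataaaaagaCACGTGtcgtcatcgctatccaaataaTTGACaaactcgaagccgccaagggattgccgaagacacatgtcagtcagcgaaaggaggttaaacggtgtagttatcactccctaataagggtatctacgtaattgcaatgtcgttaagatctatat

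Of the 35 genes, 30 had enough reads to be tested, and 15 of these 30 passed at an adjusted p under 0.05 by edgeR's quasi-likelihood test. Over all tested genes 8107 of 19834 passed (40.9%). The 6 genes that rose were all kinases: CIPK2, CIPK3, CIPK9, CIPK16, CIPK20 and CIPK21. Those that fell were the sensors CBL2, CBL6 and CBL9 and the kinases CIPK5, CIPK6, CIPK7, CIPK13, CIPK14 and CIPK17, 9 genes in all. Over all tested genes 19.3% rose and 21.6% fell. With upper quartile scaling 5 members were higher and 11 lower, and over all genes 2704 were higher and 5403 lower, against 3822 and 4285. Only 5 of the 30 passed with a change of at least 2-fold, against 20.7% of all tested genes. The log2 changes of the 30 genes ran from -2.54 to 1.74 with a median of -0.07, beside a median of -0.01 over all tested genes. In 20 of the 30 the CPM of the groups did not overlap, against 74.0% of all tested genes. Without wt 1 the number that passed was 9 of 30, while 21.1% of all tested genes passed. The genes CBL9, CIPK3, CIPK6, CIPK7, CIPK9, CIPK13, CIPK16, CIPK20 and CIPK21 passed in each of the 13 alternative fits that were run.

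**Figure D1:**
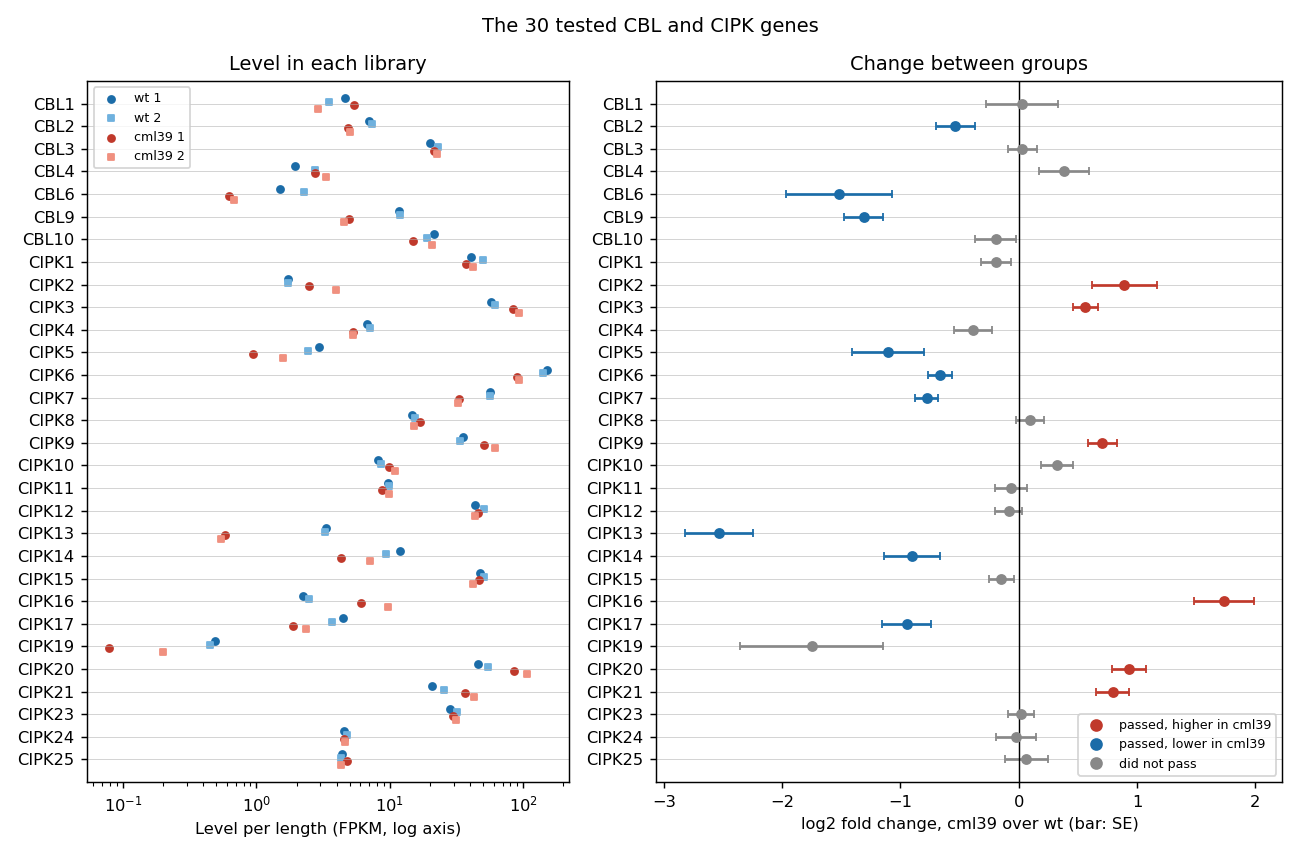
Level of the 30 tested CBL and CIPK genes in each library (left, FPKM, the CPM per kilobase of exon, on a log axis, circles and squares for replicates 1 and 2) and the log2 fold change of libraries labelled cml39 over wt with its SE (right). Changes ran from -2.54 for CIPK13 to 1.74 for CIPK16, and 15 genes passed, 6 higher and 9 lower.

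Among the calcium sensors, 7 of 10 CBL genes were tested, 3 fell and 0 rose, with a median log2 change of -0.20. The share that passed was 42.9%, near the 40.9% of all tested genes, of which 21.6% fell and 19.3% rose. CBL9 (AT5G47100, chr5:19129640-19132304 on the minus strand), a plasma membrane sensor of potassium uptake and abscisic acid responses, had 414 and 331 reads in wt and 130 and 111 in the libraries labelled cml39. Its level was 15.5 and 15.8 CPM in wt and 6.54 and 6.07 CPM in the libraries labelled cml39. Both wt libraries lay far above both others, and CBL9 fell by 1.31 ± 0.16 (SE) on the log2 scale, a level 2.48-fold lower (adjusted p = 0.000787). Its close paralog CBL1 (AT4G17615), which also activates the potassium channel kinase CIPK23, did not pass. CBL1 stood at 9.41 and 7.03 CPM in wt and at 10.9 and 5.86 CPM in the libraries labelled cml39, so the groups overlapped (log2 change 0.03 ± 0.30, adjusted p = 0.952). CBL1 shares 29 exon bases with a neighbour on the same strand, whose reads may in part have been counted for it.

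CBL2 (AT5G55990), a sensor of the vacuolar membrane, had 11.7 and 12.3 CPM in wt and 8.15 and 8.37 CPM in the libraries labelled cml39. The groups did not overlap, and CBL2 fell by 0.54 ± 0.16 on the log2 scale (adjusted p = 0.0332). That call was lost with the replicate number as a block (0.0747), in DESeq2 (0.0913), and without wt 1 (0.144), wt 2 (0.163) or cml39 1 (0.0633). Its paralog CBL3 (AT4G26570) on the same membrane was level between the groups within their spread, at 31.1 and 35.6 CPM in wt and 33.3 and 34.9 CPM in the libraries labelled cml39 (log2 change 0.03 ± 0.12, adjusted p = 0.861). CBL6 (AT4G16350) was sparse, with 39 and 46 reads in wt and 12 in each library labelled cml39. These are 1.46 and 2.2 CPM against 0.604 and 0.657 CPM, without overlap, and CBL6 fell by 1.52 ± 0.45 on the log2 scale (adjusted p = 0.0289). This call was lost with the replicate block (0.0585), in DESeq2 (0.0726), and without wt 1 (0.0768), wt 2 (0.219) or cml39 1 (0.0511).

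The sensors known from salt tolerance did not pass. CBL4, or SOS3 (AT5G24270), which recruits the kinase CIPK24 in roots, stood at 8.51 and 12.1 CPM in wt and at 12.2 and 14.6 CPM in the libraries labelled cml39. The gap between the groups was small beside the spread within them (log2 change 0.38 ± 0.21, adjusted p = 0.191). CBL10 (AT4G33000), the sensor paired with CIPK24 in shoots, had 30.5 and 27.2 CPM against 21.1 and 29.3 CPM. Its libraries labelled cml39 lay on both sides of wt 2 (log2 change -0.20 ± 0.17, adjusted p = 0.395), and the adjusted p was 0.0336 without cml39 2. CBL10 shares 14 exon bases with an abundant gene on the opposite strand, and the strand setting of the counting is not given in the sources used here. CBL5 (AT4G01420), CBL7 (AT4G26560) and CBL8 (AT1G64480) were not tested, with at most 4 reads in a library. All 3 had 0 reads in both libraries labelled cml39.

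Of the CIPK genes 23 of 25 were tested, of which 6 rose, 6 fell and 11 did not pass, with a median log2 change of -0.06. In all 52.2% passed, against 40.9% of all tested genes. CIPK16 (AT2G25090, chr2:10670410-10672892 on the minus strand), a kinase known to raise salt tolerance when overexpressed, had 108 and 95 reads in wt and 221 and 320 in the libraries labelled cml39. The level was 4.05 and 4.54 CPM in wt and 11.1 and 17.5 CPM in the libraries labelled cml39. Both of the latter exceeded both wt libraries and differed from each other, and CIPK16 rose by 1.74 ± 0.25 on the log2 scale, 3.33-fold (adjusted p = 0.00156). CIPK20 (AT5G45820), a kinase linked to abscisic acid sensitivity, had 88.1 and 104 CPM in wt and 162 and 204 CPM in the libraries labelled cml39. It rose by 0.93 ± 0.14 on the log2 scale, 1.91-fold and without overlap (adjusted p = 0.00194). CIPK21 (AT5G57630), which acts with CBL2 and CBL3 at the vacuolar membrane under osmotic and salt stress, had 43.4 and 53.5 CPM in wt and 77.8 and 90.2 CPM in the libraries labelled cml39. The groups were apart, and it rose by 0.79 ± 0.14 on the log2 scale (adjusted p = 0.00329).

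CIPK3 and CIPK9, a closely related pair that acts with CBL2 and CBL3 in storing magnesium in the vacuole, both rose. CIPK3 (AT2G26980), also known from abscisic acid responses of germinating seeds, had 186 and 197 CPM in wt and 268.5 and 297 CPM in the libraries labelled cml39. It rose by 0.56 ± 0.11 on the log2 scale, 1.48-fold (adjusted p = 0.00466). CIPK9 (AT1G01140), a kinase of growth under low potassium, had 65.3 and 62.2 CPM in wt and 94.0 and 114 CPM in the libraries labelled cml39. It rose by 0.71 ± 0.12 on the log2 scale, 1.63-fold (adjusted p = 0.00329), and neither gene overlapped between the groups. CIPK26 (AT5G21326), a close relative of CIPK3 outside the 35 genes, also rose, from 47.6 and 46.0 CPM to 65.95 and 75.5 CPM (log2 change 0.59 ± 0.11, adjusted p = 0.00491). CIPK23 (AT1G30270), their partner in magnesium storage and the kinase of AKT1 and NPF6.3, had 72.5 and 81.5 CPM in wt and 75.6 and 80.7 CPM in the libraries labelled cml39. Its groups overlapped and it did not pass (log2 change 0.02 ± 0.11, adjusted p = 0.889). CIPK2 (AT5G07070) was among the lower genes, at 3.64 CPM in each wt library and at 5.23 and 8.32 CPM in the libraries labelled cml39. It rose by 0.89 ± 0.28 on the log2 scale (adjusted p = 0.0349). The call was lost with upper quartile scaling (0.0675), with the replicate block (0.0556), and without wt 1 (0.141), wt 2 (0.126) or cml39 2 (0.16).

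CIPK13 (AT2G34180) had 152 and 117 reads in wt and 20 and 17 in the libraries labelled cml39. The level was 5.70 and 5.595 CPM in wt and 1.006 and 0.930 CPM in the libraries labelled cml39, tight within each group and far apart between them. CIPK13 fell by 2.54 ± 0.29 on the log2 scale, 5.80-fold lower (adjusted p = 0.000525). It overlaps 2 genes on the opposite strand, 1 over 83 exon bases, with 697, 615, 366 and 347 reads in wt 1, wt 2, cml39 1 and cml39 2, and 1 over 665 exon bases with 26, 5, 5 and 6 reads. CIPK7 (AT3G23000), a kinase of cold responses that binds CBL1, had 93.5 and 92.8 CPM in wt and 54.4 and 54.2 CPM in the libraries labelled cml39. The libraries of a group were nearly equal, and CIPK7 fell by 0.78 ± 0.10 on the log2 scale, 1.72-fold lower (adjusted p = 0.000839). CIPK6 (AT4G30960, chr4:15067028-15069183 on the plus strand), which acts with CBL4 on the potassium channel AKT2, had 325 and 300.2 CPM in wt and 194 and 200.8 CPM in the libraries labelled cml39. It fell by 0.66 ± 0.10 on the log2 scale, 1.58-fold lower and without overlap (adjusted p = 0.00197).

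The remaining falls each lost the call when a library was left out. CIPK17 (AT1G48260) had 12.2 and 10.04 CPM in wt and 5.18 and 6.40 CPM in the libraries labelled cml39, and fell by 0.95 ± 0.21 on the log2 scale (adjusted p = 0.00872, and 0.0867 without wt 1). CIPK14 (AT5G01820), one of the kinases of the proton pump AHA2, had 26.2 and 20.6 CPM in wt and 9.56 and 15.6 CPM in the libraries labelled cml39. It fell by 0.90 ± 0.24 on the log2 scale (adjusted p = 0.0193, and 0.118 without wt 1), with libraries of a group that differed more from each other than those of CIPK7. CIPK5 (AT5G10930) had 6.64 and 5.50 CPM in wt and 2.11 and 3.56 CPM in the libraries labelled cml39, and fell by 1.11 ± 0.30 on the log2 scale (adjusted p = 0.0218). Its adjusted p was 0.147 without wt 1, 0.0508 without wt 2 and 0.0513 without cml39 1. For all 3 genes the wt libraries lay above both libraries labelled cml39.

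The other 11 tested kinases did not pass, and among them are several of the best studied. CIPK24, or SOS2 (AT5G35410), the salt tolerance kinase that phosphorylates SOS1, had 9.53 and 10.04 CPM in wt and 9.51 and 9.74 CPM in the libraries labelled cml39 (log2 change -0.02 ± 0.17, adjusted p = 0.926). CIPK8 (AT4G24400), a kinase of the primary nitrate response, had 29.1 and 30.2 CPM against 33.3 and 29.98 CPM (log2 change 0.09 ± 0.12, adjusted p = 0.554). CIPK11 (AT2G30360), an inhibitor of the proton pump AHA2, had 17.8 and 18.2 CPM against 16.3 and 18.2 CPM (log2 change -0.06 ± 0.14, adjusted p = 0.738). All 3 overlapped between the groups, and CIPK11 shares 1823 exon bases with a gene on the opposite strand that had 41, 23, 8 and 4 reads. CIPK1 (AT3G17510), which acts with CBL1 and CBL9 in osmotic stress and abscisic acid responses, had 121 and 149 CPM in wt against 111 and 125 CPM (log2 change -0.19 ± 0.13, adjusted p = 0.272). CIPK15 (AT5G01810), a kinase of the ammonium transporters AMT1, had 116 and 123 CPM in wt against 114 and 102 CPM, without overlap (log2 change -0.15 ± 0.11, adjusted p = 0.304). CIPK12 (AT4G18700) and CIPK25 (AT5G25110) had log2 changes of -0.08 ± 0.11 and 0.06 ± 0.18, with groups that overlapped. Among these 7 kinases the groups were apart in CIPK15 alone.

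The last 3 tested kinases had groups that did not overlap but did not pass. CIPK10 (AT5G58380) had 16.8 and 17.8 CPM in wt and 20.6 and 22.7 CPM in the libraries labelled cml39 (log2 change 0.33 ± 0.13, adjusted p = 0.0864), and shares 180 exon bases with a gene on the opposite strand. CIPK4 (AT4G14580) had 11.1 and 11.8 CPM against 8.75 and 8.70 CPM (log2 change -0.39 ± 0.16, adjusted p = 0.0972, and 0.0343 with upper quartile scaling). CIPK19 (AT5G45810), known from pollen tubes, had 25 and 18 reads in wt and 3 and 7 in the libraries labelled cml39 (log2 change -1.75 ± 0.61, adjusted p = 0.0523). It passed with upper quartile scaling (0.0401) and without cml39 2, where its log2 change was -2.54 (0.0216), and too few reads stand behind it for a firm value. CIPK18 (AT1G29230), with 9, 4, 2 and 0 reads in wt 1, wt 2, cml39 1 and cml39 2, and CIPK22 (AT2G38490), with 2, 2, 4 and 4 reads, were not tested.

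To compare genes with each other, the CPM of each gene was divided by its exon length in kilobases, which gives FPKM. The summed level of the 25 CIPK genes was 601 and 625 FPKM in wt and 604 and 662 FPKM in the libraries labelled cml39, and that of the 10 CBL genes was 68.5 and 69.8 FPKM in wt and 54.8 and 59.4 FPKM. The summed CBL level was thus lower in both libraries labelled cml39, while the CIPK sums differed less. CIPK6 had the highest level of the kinases in wt, at 151 and 139 FPKM, or 25.1% and 22.3% of the CIPK sum. In the libraries labelled cml39 it held 14.9% and 14.1% of that sum, at 90.0 and 93.1 FPKM. CIPK20 stood at 45.8 and 54.0 FPKM in wt (7.62% and 8.64%) and at 84.5 and 106 FPKM in the libraries labelled cml39 (13.99% and 16.04%). CIPK3 stood at 57.7 and 61.0 FPKM in wt (9.59% and 9.77%) and at 83.3 and 92.2 FPKM in the libraries labelled cml39 (13.8% and 13.9%). CIPK6 stood well above all others in both wt libraries, while in the libraries labelled cml39 the ranges of CIPK6, CIPK20 and CIPK3 overlapped. That order depends on the exon length used. With the longest transcript in place of all merged exons, CIPK6 still led in wt (23.3% and 20.6%, against 13.2% and 13.4% for CIPK3). In the libraries labelled cml39 CIPK3 then stood highest, with 18.6% and 18.8% of the CIPK sum, above CIPK6 with 13.6% and 12.8% and CIPK20 with 12.8% and 14.6%. CIPK16, despite its rise, stayed low, at 2.22 and 2.49 FPKM in wt and 6.10 and 9.60 FPKM in the libraries labelled cml39.

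Among the sensors, CBL3 and CBL10 led in every library. Their levels overlapped in wt, while in the libraries labelled cml39 CBL3 stood above CBL10, which had 14.9 and 20.6 FPKM there. CBL3 held 29.1% and 32.7% of the CBL sum in wt and 38.9% and 37.7% in the libraries labelled cml39, while its own level of 19.95 and 22.84 FPKM against 21.3 and 22.4 FPKM overlapped between the groups. CBL10 held 31.3% and 27.4% in wt and 27.2% and 34.7%. CBL9 was next in wt, with 17.0% of the sum in both libraries, and held 8.97% and 7.67% in the libraries labelled cml39, close to CBL2 with 8.91% and 8.44%. CBL1 varied more within the groups than between them, at 6.78% and 4.97% in wt and 9.84% and 4.86%. The level of CBL4 may be understated, since its merged exons span 4417 bases, the longest of the family. Shares add up to a fixed total, so a lower share of 1 gene raises the others.

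**Figure D2:**
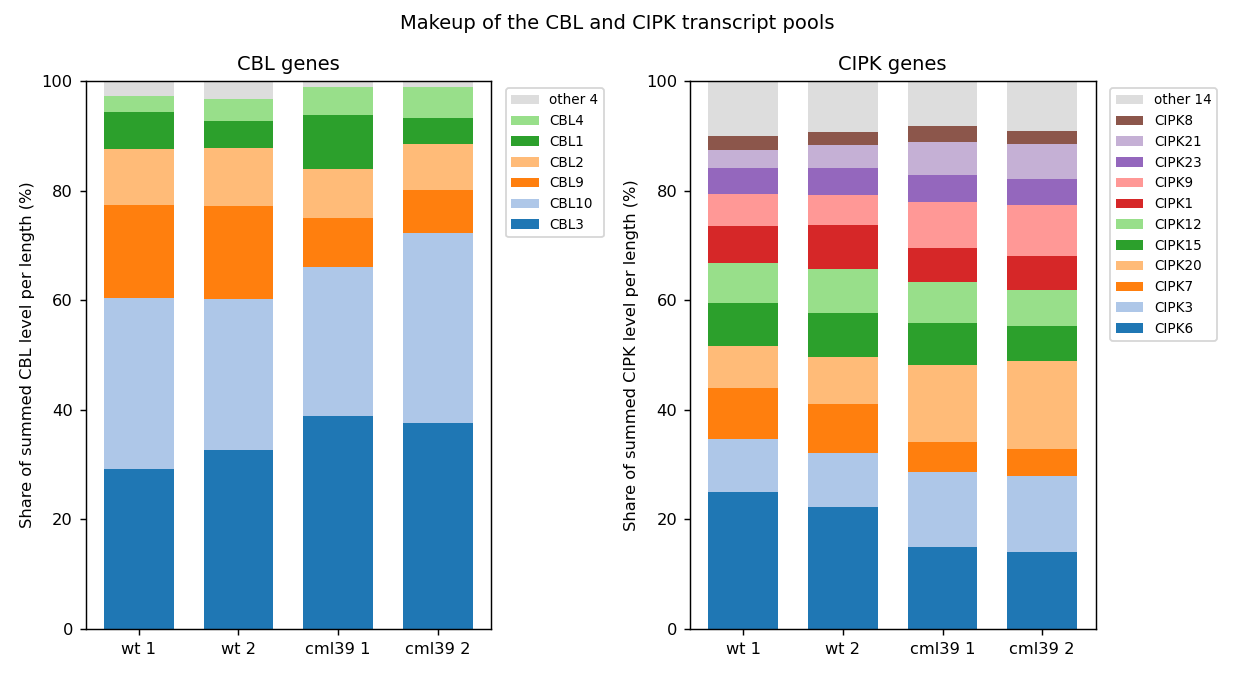
Share of each gene in the summed level per length (FPKM over merged exons, percent) of the 10 CBL genes (left) and the 25 CIPK genes (right) in each of the 4 libraries. CBL9 goes from 17.0% in both wt libraries to 8.97% and 7.67% under the cml39 label, and CIPK6 from 25.1% and 22.3% to 14.9% and 14.1%, while CIPK20 and CIPK3 take larger shares.

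Ratios between related genes within a library show whether members of a pair moved apart. With 2 libraries against 2 these ratios were not tested, and the pairs were chosen with the values known. CBL9 and CBL1, whose coding sequences are 71.4% identical, had an FPKM ratio of 2.51 and 3.43 in wt and of 0.912 and 1.58 in the libraries labelled cml39. CBL9 thus stood above CBL1 in wt, and below it in cml39 1 and above it in cml39 2. The ratio depends on the exon length used. With the longest transcript, CBL9 held 15.4% and 15.6% of the CBL sum in wt, against 8.35% and 6.17% for CBL1. In the libraries labelled cml39 it then held 8.04% and 6.94%, against 11.98% and 5.97% for CBL1. CBL2 over CBL3 (84.4% identical) was 0.351 and 0.322 in wt and 0.229 and 0.224 in the libraries labelled cml39, and reads that fit both genes may have been lost or split in the counting. CIPK17 over CIPK1 (77.2%) was 0.109 and 0.0731 against 0.0505 and 0.0555. CIPK5 over CIPK25 (71.8%) was 0.674 and 0.569 against 0.198 and 0.366. CIPK7 over CIPK4 (75.5%) was 8.38 and 7.82 against 6.17 in each library. CIPK14 over CIPK15 (58.2%), neighbours 1092 bases apart, was 0.249 and 0.184 against 0.0925 and 0.169. In all of these the first gene was lower relative to the second in both libraries labelled cml39.

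CIPK2 over CIPK10 (77.0% identical) went the other way, at 0.213 and 0.201 in wt and 0.2497 and 0.3597 in the libraries labelled cml39. Pairs that kept their ratio were CIPK3 over CIPK9 (68.0%), at 1.64 and 1.82 against 1.644 and 1.503, and CIPK3 over CIPK26 (72.6%), at 2.29 and 2.51 against 2.39 and 2.31. Both overlapped between the groups, beside the rises of all 3 genes. CIPK8 over CIPK24 (65.5%) was 3.26 and 3.22 against 3.75 and 3.29, a gap no wider than the spread of the libraries labelled cml39.

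**Figure D3:**
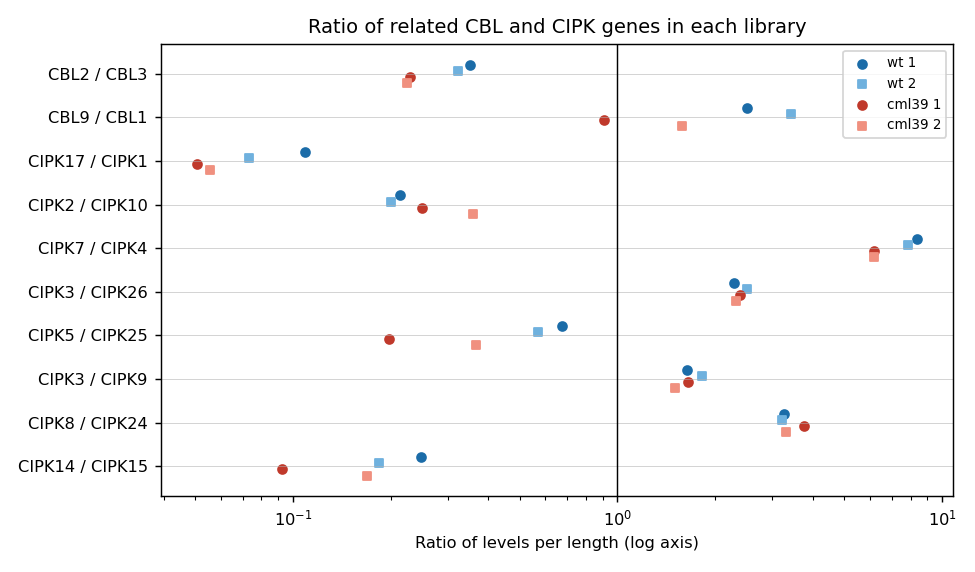
Ratio of the level per length (FPKM, log axis) of the first over the second gene of 10 related pairs in each of the 4 libraries, with a line at a ratio of 1. CBL9 over CBL1 moves from 2.51 and 3.43 in wt to 0.912 and 1.58 under the cml39 label, while CIPK3 over CIPK9 and CIPK3 over CIPK26 overlap between the groups.

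The CIPK family falls into genes rich in introns and genes with few or none, split here at 5 exons in the RefSeq annotation. All 8 intron-rich genes were tested: CIPK3, CIPK9 and CIPK21 rose, CIPK17 fell and 4 did not pass, with a median log2 change of 0.06. Of the 17 intron-poor genes 15 were tested, and CIPK2, CIPK16 and CIPK20 rose while CIPK5, CIPK6, CIPK7, CIPK13 and CIPK14 fell, with a median log2 change of -0.15. In all 4 of 8 and 8 of 15 passed, against 40.9% of all tested genes, and the difference between the classes was not tested. CIPK20, which rose, lies 279 bases from CIPK19, whose log2 change of -1.75 did not pass, and CBL3 lies 295 bases from CBL7, which had at most 4 reads.

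In the 250 bases before the gene, TTGAC, the core of the W-box bound by WRKY factors, stood on either strand in 21 of the 35 genes, against 44.9% of 27443 promoters of the same length. It was present in 7 of the 9 genes that fell (all but CIPK5 and CIPK17) and in 1 of the 6 that rose, CIPK9. It also stood in 9 of the 15 that did not pass. Its share among all genes that rose or fell was not counted. The 17 tested genes with TTGAC had a median log2 change of -0.39, and the 13 without it had 0.06, a difference that was not tested. The windows of CBL9 and CIPK6 printed above hold 1 match each, and that of CIPK16 holds 0, in genes that were picked by their changes. ACGTG, the core of elements bound by bZIP factors of the abscisic acid response, stood in 10 of the 35 genes, against 22.9% of promoters. Among them were CBL9, CIPK6 and CIPK13 of the 9 that fell and 0 of the 6 that rose. The share of ACGTG among all genes that rose or fell was not counted, and this split was not tested. Of the other members with ACGTG 4 did not pass and 3 were not tested. In CBL9 and CIPK6 it lies in the palindrome CACGTG, which matches on both strands. AAATATCT, the evening element of clock-regulated genes, was found before CIPK8 and CIPK16 (4.8% of promoters), on the reverse strand in the window of CIPK16 shown above. CGCGTT, a letter sequence of the CGCG elements bound by calmodulin-binding CAMTA factors, was found before CBL9 and CIPK2 (2.6%), and CCGAC, the core of the dehydration and cold element, before CIPK2, CIPK10, CIPK12 and CIPK20 (12.0%). In the 3 printed windows no match to one motif overlaps a match to another. A match is a description, not a binding site.

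Of 20 targets of CBL and CIPK proteins, 18 were tested, of which 5 rose, 8 fell and 5 did not pass. Their median log2 change was -0.39, and 72.2% passed, against 40.9% of all tested genes. The iron uptake genes of the root epidermis were lowest. IRT1, the iron transporter, had 39.5 and 43.6 CPM in wt and 2.82 and 3.72 CPM in the libraries labelled cml39, and fell by 3.67 ± 0.17 on the log2 scale (adjusted p = 3.17e-05). FRO2, the ferric reductase, went from 33.9 and 43.0 CPM to 3.67 and 2.63 CPM and fell by 3.60 ± 0.21 (adjusted p = 5.66e-05). FIT, the transcription factor that turns both on and is itself a CIPK11 substrate, went from 12.1 and 13.4 CPM to 1.51 and 1.48 CPM and fell by 3.09 ± 0.22 (adjusted p = 9.36e-05). No library of one group came near those of the other, and these genes move beside the root markers given above, whose part was not tested. AHA2, the root plasma membrane proton pump, had 578 and 553 CPM in wt and 247 and 244 CPM in the libraries labelled cml39, and fell by 1.20 ± 0.10 on the log2 scale (adjusted p = 0.000165). NPF6.3, the nitrate transporter and sensor phosphorylated by CIPK23, had 75.9 and 72.4 CPM against 39.1 and 43.2 CPM and fell by 0.85 ± 0.11 (adjusted p = 0.000898). All 5 genes passed in every alternative, but IRT1 and FRO2 did not pass in the authors' deposited comparison given below. The 5 targets that rose were the anion channels SLAH2 and SLAH3, the vacuolar calcium exchanger CAX1, and the transcription factors ABI5 and ABR1, and AKT1, SLAC1 and RBOHF were the other falls. Without cml39 1 the log2 change went from 1.85 to 1.06 for SLAH3, from 1.82 to 1.2 for SLAH2 and from 2.65 to 1.53 for ABR1, and that of ABR1 was 3.26 without cml39 2. Calls were lost without wt 1 for AKT1 (0.0539) and ABI5 (0.0942) and without wt 2 for AKT1 (0.064) and RBOHF (0.0595). SLAC1, at an adjusted p of 0.0479, lost the call in 8 of the 13 alternatives, among them every fit that left out a library. HAK5 and SPIK, potassium transport genes with at most 13 reads in a library, were not tested.

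Of 13 regulators of the network 12 were tested, of which 5 rose, 0 fell and 7 did not pass, with a median log2 change of 0.28. The share that passed, 41.7%, was near the 40.9% of all tested genes, of which 19.3% rose and 21.6% fell. GIGANTEA (GI), a clock protein that holds CIPK24 inactive, had 65.6 and 63.2 CPM in wt and 146 and 160 CPM in the libraries labelled cml39. It rose by 1.25 ± 0.10 on the log2 scale, without overlap (adjusted p = 0.000167). ABI1, a protein phosphatase of abscisic acid signalling that binds CIPK proteins, had 34.2 and 39.9 CPM in wt and 72.0 and 68.8 CPM in the libraries labelled cml39, and rose by 0.93 ± 0.12 (adjusted p = 0.000864). J3, a chaperone that represses CIPK11, had 213 and 212 CPM against 323 and 327 CPM and rose by 0.61 ± 0.10 (adjusted p = 0.00219). The 14-3-3 proteins GRF8 and GRF6, members of the family that binds CIPK24, rose by 0.46 ± 0.11 and 0.45 ± 0.13 (adjusted p = 0.0126 and 0.0246), and lost the call without wt 1 (0.101 and 0.129). GRF6 also lost it with upper quartile scaling (0.0857), with the replicate block (0.0521) and without cml39 1 (0.0781).

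The 12 listed SnRK1 and SnRK2 kinases, near relatives of the CIPK proteins, were all tested, and 5 rose, 2 fell and 5 did not pass. Their median log2 change was 0.25, and 58.3% passed, against 40.9% of all tested genes. SnRK2.7 had 4.76 and 3.83 CPM in wt and 0.855 and 1.20 CPM in the libraries labelled cml39, and fell by 2.06 ± 0.34 on the log2 scale (adjusted p = 0.00257). SnRK2.5 had 7.61 and 6.03 CPM against 1.96 and 2.41 CPM and fell by 1.65 ± 0.26 (adjusted p = 0.0023). SnRK2.9 had 7.16 and 9.90 CPM against 17.8 and 16.8 CPM and rose by 1.03 ± 0.19 (adjusted p = 0.00459). The groups of these 3 genes did not overlap. SnRK2.4 and SnRK2.1 rose by 0.60 ± 0.12 and 0.40 ± 0.11 (adjusted p = 0.00596 and 0.0214). Without wt 1 the adjusted p of both missed the threshold (0.0586 and 0.183), and that of SnRK2.1 also did with upper quartile scaling (0.0951), with the replicate block (0.0515) and without wt 2 (0.0619).

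**Figure D4:**
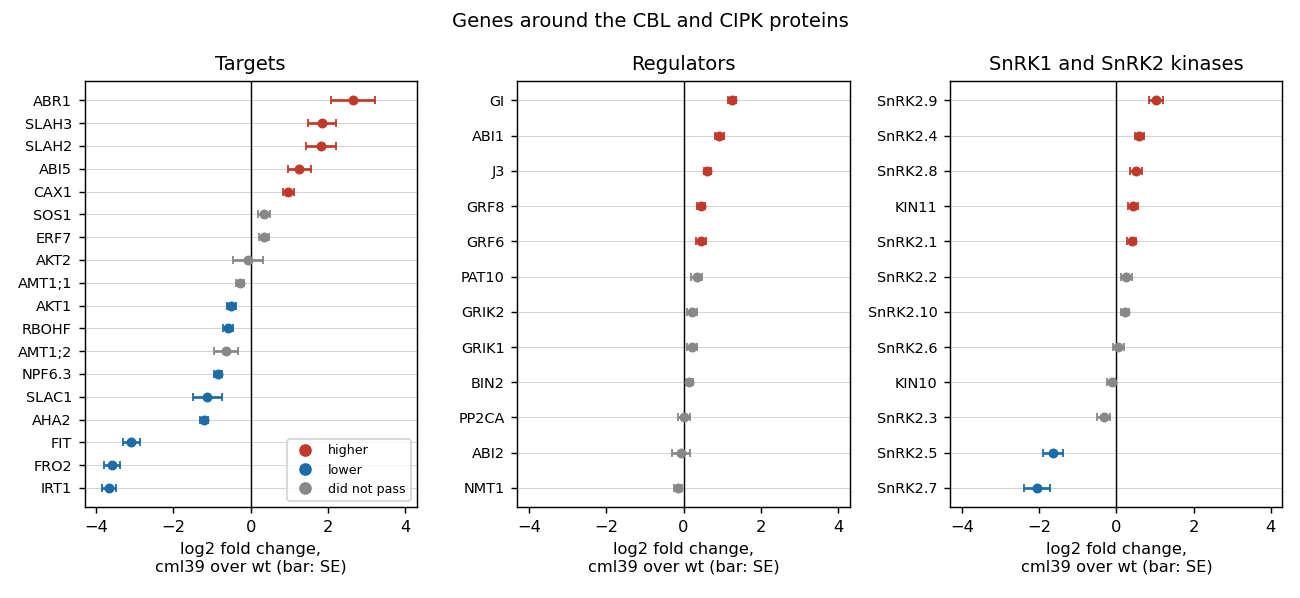
Log2 fold change (libraries labelled cml39 over wt, bar for the SE) of the tested targets, regulators and SnRK1 and SnRK2 kinases. IRT1, FRO2 and FIT lie between -3.67 and -3.09 among the targets, and of the 12 tested regulators 5 rose and 0 fell.

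In the authors' deposited table, 7 of the 30 members with an adjusted p passed, against 16.0% of all genes with an adjusted p there. In the authors' deposited table CIPK3, CIPK9, CIPK16 and CIPK21 were higher and CBL9, CIPK6 and CIPK7 lower, each in the direction found here. All 30 log2 changes of members in the authors' deposited table had the sign found here. That table was deposited with these counts and may rest on some of the same libraries, so shared signs are no independent check. Of the other genes named above that passed here, FIT, AHA2, NPF6.3, SLAH2, SLAH3, CAX1, ABR1 and ABI1 also passed there in the same direction. So did SnRK2.4, SnRK2.5, SnRK2.7, CIPK26, CML39 and PI. IRT1 (log2 change -1.06, adjusted p = 0.202), FRO2 (-1.39, 0.092) and GI (0.62, 0.555) did not pass there. Nor did J3, GRF6, GRF8, SnRK2.1, SnRK2.9, AKT1, SLAC1, RBOHF, ABI5 and WOX5. The authors' deposited table gave CIPK20 a log2 change of 0.32 with an SE of 0.55 (adjusted p = 0.774) and CIPK13 one of -1.53 (adjusted p = 0.06). Both genes passed here, with log2 changes of 0.93 and -2.54. How the deposited fit estimated log2 changes is not given, so sizes there and here may not be on the same measure. For CML39 the log2 change was 2.78 there and 8.20 here. The mean normalised count of CIPK20 was 2320 there, against 2960 over the 4 libraries used here. Over the 35 members the ratio of these means ran from 0.671 for CBL7 to 1.39 for CIPK5. CBL7 was sparse, with means of 0.534 and 0.796, and the ratio was 0.785 for CIPK20. The median ratio of all genes with a mean of at least 10 was 1.01. The reason for the mismatch was not tested.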

How the data were processed

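RNA of 4 seedling libraries was measured by sequencing with a stranded mRNA kit, per the labels' protocols. The submitters' processing notes name CASAVA 1.8, FastQC, STAR 2.5.2b, DESeq2 1.14.1 and TAIR10. The role of each tool, the gene annotation and the strand setting of the counting are not given in the sources used here. The deposited count table holds raw read counts per gene, whole numbers with a different total in each library, and every count column belonged to a sample. In the authors' deposited comparison, per the file headers, the signal column is a mean of normalised counts, the fold change and its error are log2 values, the Wald statistic is a score, and the p-values are raw and adjusted, the latter absent for 3254 genes.

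Counts were tested with edgeR 4.0.16 in R 4.3.3 (filterByExpr, trimmed mean of M values, factors 0.905 to 1.11, quasi-likelihood F test, two-sided), with Benjamini-Hochberg adjustment over 19834 genes and a threshold of 0.05. Genes varied between libraries of a group with a coefficient of 0.129. SE is the absolute log2 change over the square root of F. CPM and FPKM use the scaled library sizes, and FPKM the merged exon length in TAIR10.1. Libraries of a group differed by more than sampling noise (chi-square per degree of freedom 10.2 in wt and 15.3 in cml39). Same-numbered libraries deviated from their group means with a correlation of -0.118, so the numbers were not taken as pairs. Intervals of counting error only stand behind the limits at 3 reads.

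The members and lists were chosen with earlier results of these data known. Named were all 35 members, CML39, CIPK26 and up to 5 genes of lowest p in each of the lists of targets, regulators and SnRK kinases, and other names were chosen after their values were seen. The alternatives tried were upper quartile scaling, DESeq2 size factors, every gene with a count, a filter of 1 CPM in 2 libraries, robust dispersions, a block for the replicate number, limma-voom (limma 3.58.1), DESeq2 1.42.0, each library left out in turn, exon length of the longest transcript and, added after the data were seen, a crossed block. The steps were tested on simulated data. Some listed items are not reported here. The libraries behind the deposited comparison are not given in the sources used here.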

Additional observations from a re-analysis of the deposited data

How the results depend on the processing

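Of the 15 called members 9 passed in all 13 alternative fits, 6 lost the call in at least 1, and 3 others gained it, each named with its values above; no log2 change of a tested member changed sign past the threshold. Under upper quartile scaling the log2 changes of all tested genes shifted by a median of -0.148, and values under it stand relative to that. With the replicate block 12 members passed (5 higher, 7 lower), and with the crossed pairing 15. Upper quartile scaling gave 1 lower regulator (NMT1), and 4 SnRK genes called with 2 of them higher. DESeq2 called 13 members.

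With each library left out in turn, calls over all genes ran from 4177 to 8364 (1997 to 3943 higher, 2180 to 4421 lower), and members called from 9 to 16 (4 to 11 lower). For targets the lower calls ran from 5 to 9, for regulators the calls ran from 3 to 6 (3 to 6 higher), and for SnRK genes from 3 to 8 (1 to 5 higher). The lowest count was without wt 1 in each case except the lower targets, where it was without wt 2. A fit without a library leaves 1 library in its group, which is assumed to vary like the other group. The cause of these shifts was not tested. The FPKM shares of CBL3 and CIPK6 in wt were 30.6% and 22.0% with the longest transcript, against 30.9% and 23.7%, while that of CIPK3 went from 9.68% to 13.3% in wt and from 13.9% to 18.7% in cml39. Depth limits CBL6 and CIPK19 and the 5 untested members most.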
